A study of Mus musculus with 24 samples.

Results

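The 93 genes described here encode the nuclear part of the mitochondrial respiratory chain, out of 23881 genes in the expression table of mouse visual cortex. They were taken by symbol: every gene starting with Ndufa, Ndufb, Ndufc, Ndufs, Ndufv, Uqcr, Atp5, Cox4, Cox5, Cox6, Cox7 or Cox8, together with Sdha, Sdhb, Sdhc, Sdhd and Cyc1, pseudogene symbols left out. By complex they are 36 subunits of complex I, 4 of complex II, 9 of complex III, 19 of complex IV and 15 of ATP synthase (complex V). The prefixes also bring in 7 complex I assembly factors (Ndufaf1 to Ndufaf7) and 3 other genes, Cox7a2l, Atp5s and Atp5sl, which are kept apart below. Messenger RNA was measured in 12 libraries, 4 in each of 3 groups of C57BL6J mice. P10-wt and P28-wt are wild-type mice aged 10 and 28 days, and P28-KO are mice aged 28 days with a ubiquitous deletion of the locus that holds miR-132 and miR-212. The mutants and wild types were littermates of both sexes under normal rearing, there was no P10-KO group, and neither an age effect within the mutant nor an interaction of age with genotype can be tested. The study counts mice as its replicates, while the labels name no animal for a library, and p-values measure the spread between the libraries of a group.

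Complex I (NADH dehydrogenase) and complex II (succinate dehydrogenase) pass electrons to ubiquinone, complex III (cytochrome bc1) passes them on to cytochrome c, and complex IV (cytochrome c oxidase) to oxygen. ATP synthase then uses the proton gradient that complexes I, III and IV build. Complexes I, III, IV and V combine nuclear subunits with a few encoded in mitochondrial DNA, whereas all subunits of complex II are nuclear. In the cortex the chain supplies most of the ATP spent on ion pumping and synaptic transmission, and several complex IV subunits exist as tissue isoforms.

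The targeted locus followed the labels. Mir132 was listed at 0 in all 4 P28-KO libraries and at 9.74 to 14.4 RPKM (read counts scaled to exon length in kilobases and to the mapped reads of the library) in P28-wt, against 0.130 to 1.19 in P10-wt. Summed RPKM ran from 256643 to 293066 per library, and the reads behind a value were not computed here because the table holds no counts. Several marker lists moved between the ages, where 26.7% of all genes were higher and 31.2% lower in P28-wt. In P28-wt 7 of 7 myelin and 5 of 5 microglial markers were higher, and 3 of 3 markers of oligodendrocyte precursors were lower. Of 5 neuronal markers 3 were higher and 1, Map2, was lower. Of 5 astrocyte markers 2 were higher and 1 lower, of 4 endothelial markers 0 and 2, and of 9 markers of pericytes and vascular muscle 0 and 2. The summed level of 5 neuronal markers was 910 to 1268 RPKM in P10-wt, 2209 to 2448 in P28-wt and 2101 to 2160 in P28-KO. Snap25 alone was at 272 to 405 in P10-wt, 1014 to 1222 in P28-wt and 927 to 1002 in P28-KO. The sum of 7 myelin markers was 23.4 to 97.5 in P10-wt, 1720 to 2456 in P28-wt and 1285 to 1642 in P28-KO. Both sums were thus lower in every P28-KO library than in any P28-wt library, though no marker of either list was called between these groups. Choroid plexus markers stayed at a sum of 0.504 to 2.51. In a bulk tissue, fewer cells of a type and less RNA per cell cannot be told apart, and the part of these marker changes in the results below was not tested.

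Among the respiratory chain genes libraries 158R, 103R and 144R stood apart. P28-wt library 158R gave the highest of the 12 values for 62 of the 89 members tested, and its members lay by a median of 0.52 on the log2 scale above the mean of the other 3 P28-wt libraries. At the other end, P28-wt library 144R was the lowest of its group for 74 members and P10-wt library 103R for 75, and 103R was the lowest of all 12 for 39. Library 103R was also the lowest in P10-wt for the summed neuronal (910 RPKM), myelin (23.4) and microglial (33.4) markers. For oligodendrocyte precursor markers it was the highest of that group (34.7). The excess in 158R went with transcript length. Among the 13 members with transcripts of up to 500 nt its median was 0.89, among the 26 between 500 and 750 nt 0.66, and among the 17 between 1500 and 2500 nt 0.16. Among all genes tested the median in 158R was 0.33 up to 500 nt (344 genes) and then went from 0.47 between 500 and 750 nt (309 genes) through 0.12 between 1500 and 2500 nt (3051 genes) to -0.10 above 4000 nt (4533 genes). The respiratory chain genes are short, with a median transcript of 805 nt against 3026 nt. Apart from that on Atp5j, results on P28-wt are given without 158R where leaving that library out changed a call or moved a called value by over 1.5 times. The part of transcript length in these results was not tested.

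**Figure D1:**
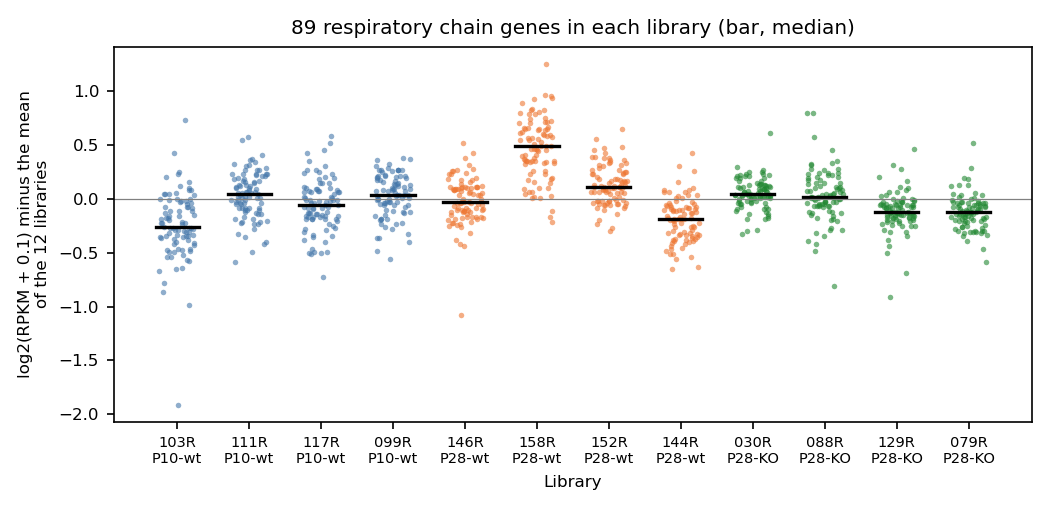
Each point is 1 of the 89 respiratory chain genes tested, drawn as its log2(RPKM + 0.1) in a library minus its mean over the 12 libraries (y axis), with libraries on the x axis coloured by group and bars at the medians. Library 158R of P28-wt sits above all others, while 103R of P10-wt and 144R of P28-wt sit low.

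**Figure D2:**
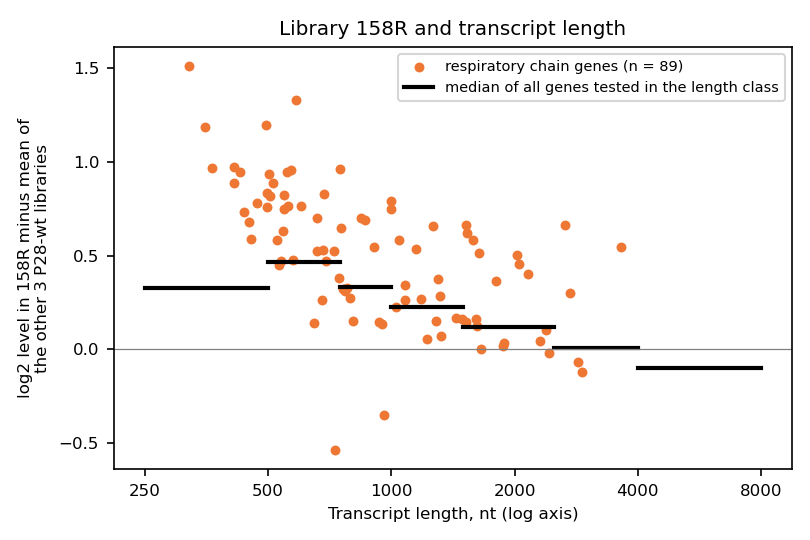
The x axis is transcript length in nt on a log axis and the y axis the log2 level in 158R minus the mean of the other 3 P28-wt libraries; points are the 89 respiratory chain genes and horizontal bars the medians of all genes tested in each length class, the first and last class being open-ended. Members with short transcripts lay highest, with a median of 0.89 in the class up to 500 nt.

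Members of the chain were among the most abundant messages of the cortex. Their median level over the 12 libraries was 64.8 RPKM against 7.79 RPKM for all 13927 genes tested, and 62 of the 89 lay in the top 10% of genes. The 93 genes together took 2.62% ± 0.24 (SD, n = 4) of the summed RPKM in P10-wt, 2.95% ± 0.48 in P28-wt, where 158R had 3.61% and the others 2.46% to 2.94%, and 2.77% ± 0.13 in P28-KO. By complex, the median member in P10-wt stood at 51.3 ± 5.23 RPKM for complex I, 67.3 ± 6.02 for complex II, 92.4 ± 13.8 for complex III, 66.4 ± 8.84 for complex IV and 95.8 ± 5.08 for ATP synthase. The ranges of complexes III and V overlapped, as did those of II and IV. The catalytic beta subunit of ATP synthase, Atp5b, was the most abundant member in every P10-wt library with a mean of 479 ± 29.7 RPKM. The other 4 genes stayed under the mean of 0.5 RPKM required for a test: the testis isoforms Cox7b2 (mean 0.220) and Cox8c (listed at 0 throughout), the muscle isoform Cox8b (0.0713) and the complex I subunit Ndufs5 (0.491).

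The low level of Ndufs5 and of some other members cannot be read as low expression. The authors kept only reads with a unique place in the genome, and 13 of the 93 transcripts had at least 80% of their length repeated elsewhere in the genome at 97% identity or more, as processed pseudogenes of these genes are. They are Atp5g1, Atp5g2, Atp5h, Atp5l, Atp5o, Cox5b, Cox7a2l, Cox7c, Ndufb4, Ndufs3, Ndufs5, Uqcr11 and Uqcrb. Ndufs5, Atp5g2 (1.30 RPKM), Ndufb4 (4.40) and Atp5l (7.54) had the lowest means of the 13, and Atp5o (151) and Uqcr11 (111) the highest. For Ndufs5 the expression table also lists only positions 123718162 to 123718186 of chromosome 4, against a transcript of 509 nt. The part of the copies in these levels was not tested. The level of each of the 13 genes is uncertain, and a call on one of them is marked as such.

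To ask how the chain changed with age, P28-wt was compared with P10-wt. Among the subunits that rose were Sdha of complex II, the core subunits Ndufs7, Ndufv1 and Ndufs8 of complex I, and Cox4i1 and Cox8a of complex IV. Sdhd, the membrane anchor of complex II, and the complex I assembly factors Ndufaf2 and Ndufaf5 fell. In all, 22 of 89 members were higher (24.7%) and 5 lower (5.62%) by limma on log2(RPKM + 0.1) at a Benjamini-Hochberg adjusted p under 0.05, against 26.7% and 31.2% of all genes tested (57.9% in either direction). All 4 P28-wt libraries lay above all 4 P10-wt libraries for 14 members (15.7%, against 24.9% of all genes) and below them for 3 (3.37%, against 29.7%). The members' median difference was 0.13 on the log2 scale against -0.05 for all genes. Without 158R the members gave 18 higher and 16 lower (against 26.5% and 33.0% of all genes) with a median of -0.01, and without 103R they gave 15 higher and 4 lower with a median of 0.06 (against 25.7% and 29.4% of all genes). With 103R and 158R both left out, a choice made after seeing the data, 16 were higher and 21 lower (against 27.5% and 33.4%). Quantile normalization gave 20 higher and 8 lower (against 28.6% and 29.9%), and the regularized test on RPKM that the study used, as rebuilt here, 34 and 8 (against 34.0% and 39.4%). Among the fits without 1 library, the number of falling members thus changed most when 158R was left out. It also moved with 158R kept, to 8 under quantile normalization. In each of the 8 fits that left out 1 library and each of 10 further settings, 11 rises and 3 falls were called. The share of all genes called in every such fit is not given here, so these counts do not set the members apart. Among these rises were those of Atp5sl, Cox4i1, Cox6a2, Cox8a, Ndufaf3, Ndufb10, Ndufs7, Ndufs8, Ndufv1 and Sdha, and the falls were those of Ndufaf2, Ndufaf5 and Sdhd.

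Base composition moved with the age difference. The 22 higher members had a median transcript GC content of 56.65%, the 5 lower ones 48.7% and the 62 others 50.4%. Over the 89 members Spearman's rho between GC content and the age difference was 0.52, and over 13870 genes 0.26, both as descriptions of points that share the same 8 libraries. When trends on GC content and length were removed from each library, 15 members were higher and 11 lower (against 29.2% and 31.1% of all genes), and the median was 0.06. The part of GC content in the age difference was not tested further.

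**Figure D3:**
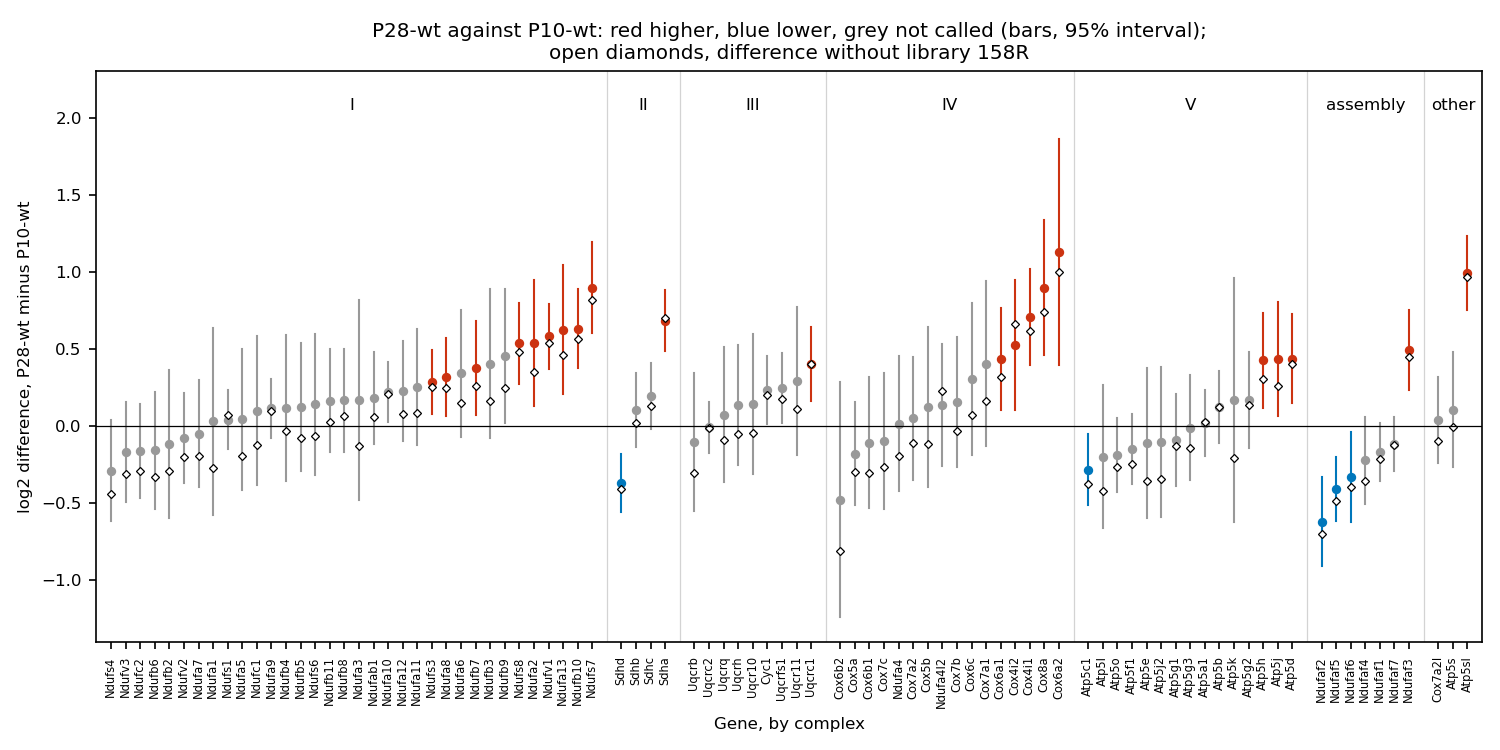
Each point is 1 of the 88 genes drawn, ordered within its complex (x axis), and the y axis is the log2 difference P28-wt minus P10-wt with its 95% interval; red genes were called higher, blue lower, and open diamonds give the difference without 158R. Without 158R, Sdha (0.70), Ndufs7 (0.82), Cox4i1 (0.61) and Cox8a (0.74) still lie above 0, and 16 members in place of 5 are called lower.

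Complex II showed unequal changes of its 4 subunits. Sdha, the flavoprotein that oxidises succinate, was at 61.8, 74.7, 75.4 and 76.5 RPKM in the P10-wt libraries and at 119, 111, 122 and 109 in P28-wt. The groups did not overlap, and Sdha rose by 0.68 ± 0.09 on the log2 scale (SE; adjusted p = 0.000108 by limma). Sdhd, which with Sdhc anchors the enzyme in the inner membrane and binds ubiquinone, was at 54.9, 65.5, 64.7 and 65.3 RPKM in P10-wt and at 47.3, 52.1, 49.0 and 44.7 in P28-wt. Every P28-wt value lay below every P10-wt value, and Sdhd fell by 0.37 ± 0.08 (adjusted p = 0.00355 by limma). The iron-sulfur subunit Sdhb differed by 0.10 ± 0.11 and the other anchor Sdhc by 0.20 ± 0.10, neither past the threshold (adjusted p = 0.444 and 0.104 by limma). The ratio of Sdha to Sdhd within a library was 1.13, 1.14, 1.17 and 1.17 in P10-wt, 2.52, 2.14, 2.48 and 2.45 in P28-wt, and 2.52, 2.85, 2.59 and 2.69 in P28-KO. No P10-wt library came near any P28 library in this ratio, and the lowest P28 value was that of 158R. Without 158R, Sdha was higher by 0.70 and Sdhd lower, at -0.41. The pair was singled out after its values were seen, so the ratio is given without a test.

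**Figure D4:**
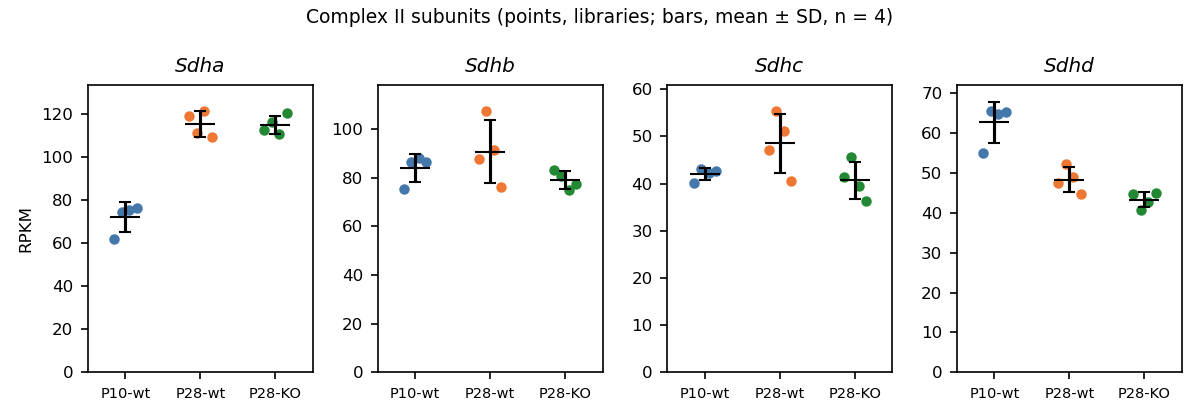
RPKM of the 4 complex II subunits (y axes from 0) in P10-wt, P28-wt and P28-KO (x axis), with points for libraries and bars for mean ± SD (n = 4). Sdha lies between 109 and 122 RPKM in all 8 P28 libraries against 61.8 to 76.5 in P10-wt, and Sdhd lies lower at P28 than in any P10-wt library.

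The promoters of this pair are shown because both genes belong to one enzyme and moved in opposite directions. Each runs from 250 bases before to 50 bases after the annotated start in RefSeq (GRCm38.p6, which is mm10), on the gene's strand. Sdha is on the minus strand of chromosome 13 (promoter chr13:74350191-74350490) and Sdhd on the minus strand of chromosome 9 (promoter chr9:50603800-50604099). Capitals mark matches, on either strand, to the motifs of NRF1 (GCGC, any 2 bases, GCGC), GABPA (CCGGAAG), YY1 (AANATGGCG) and ESRRA (TCAAGGTCA), factors known to drive nuclear genes of the chain.
Sdha: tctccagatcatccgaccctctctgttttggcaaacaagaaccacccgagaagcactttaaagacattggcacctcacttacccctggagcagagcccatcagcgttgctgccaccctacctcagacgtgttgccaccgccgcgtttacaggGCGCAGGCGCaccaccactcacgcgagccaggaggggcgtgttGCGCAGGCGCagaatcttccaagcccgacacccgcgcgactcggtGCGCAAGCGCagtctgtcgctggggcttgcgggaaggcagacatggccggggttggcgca
Sdhd: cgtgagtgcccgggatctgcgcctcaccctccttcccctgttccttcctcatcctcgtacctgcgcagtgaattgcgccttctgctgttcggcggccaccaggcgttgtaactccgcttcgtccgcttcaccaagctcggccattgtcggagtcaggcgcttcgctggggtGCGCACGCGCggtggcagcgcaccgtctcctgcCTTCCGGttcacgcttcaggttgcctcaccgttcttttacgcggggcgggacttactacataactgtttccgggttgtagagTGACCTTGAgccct
The Sdha window held 3 matches to the NRF1 motif, and the Sdhd window held 1 match each to those of NRF1, GABPA and ESRRA. Promoters were found for 73 of the 93 members. The NRF1 motif was in 28.8% of these genes against 7.0% of 27025 genes with a promoter in the reference, the GABPA motif in 23.3% against 9.9%, the YY1 motif in 13.7% against 2.8% and the ESRRA motif in 2.7% against 0.5%. The members' promoters were also richer in CpG, with a median of 19 in 300 bases against 8, and these matches say nothing of binding in this tissue.

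In complex I, 10 of 35 tested subunits were higher and none was lower in P28-wt, with a median difference of 0.17 on the log2 scale. The share called higher, 28.6%, was near the 26.7% of all genes, and that called lower was under their 31.2%. The 7 nuclear core subunits, which carry the flavin, the iron-sulfur clusters and the quinone site, gave 5 of the 10, Ndufs3, Ndufs7, Ndufs8 and Ndufv1 among them, and the 28 accessory subunits tested gave the other 5 (Ndufa2, Ndufa8, Ndufa13, Ndufb7 and Ndufb10). Of the latter, Ndufa8 and Ndufb7 kept their call in 3 of the 8 fits without a library and lost it without 158R (adjusted p = 0.0740 and 0.0797 by limma), and Ndufa2 went from 0.54 to 0.35 without 158R. Without that library the core gave the same count of 5 higher and none lower, whereas the accessory subunits gave 3 higher and 4 lower. All genes gave 26.5% higher and 33.0% lower in that fit. Ndufs7, which holds the last iron-sulfur cluster before ubiquinone, was at 41.7, 53.5, 56.0 and 54.5 RPKM in P10-wt and at 96.3, 112, 99.9 and 75.9 in P28-wt. Its groups did not overlap, and it rose by 0.90 ± 0.13 (adjusted p = 0.000247 by limma). Ndufv1, which binds NADH and the flavin, was at 53.9, 61.6, 62.2 and 62.7 RPKM in P10-wt and at 84.7, 97.6, 98.4 and 79.5 in P28-wt. It also showed no overlap and rose by 0.58 ± 0.09 (adjusted p = 0.000442 by limma). Ndufs8, which carries a further pair of iron-sulfur clusters, rose by 0.53 ± 0.12 from 34.8 ± 4.67 to 50.4 ± 5.90 RPKM (SD, n = 4). With trends on GC content and length removed the rises were smaller, 0.56 for Ndufs7, 0.35 for Ndufv1 and 0.26 for Ndufs8, all still called, whereas Ndufs3, Ndufa8, Ndufa13 and Ndufb7 lost their calls. Ndufs1, the largest core subunit, stood at 32.7 ± 2.99 RPKM in P10-wt and 33.6 ± 2.21 in P28-wt and did not pass the threshold. Ndufv2, at 43.2 ± 3.13 and 41.5 ± 8.58 RPKM, did not pass either. The call on Ndufs3 is uncertain because its transcript is repeated elsewhere, and it was lost when 103R and 158R were both left out (adjusted p = 0.0503 by limma).

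The assembly factors of complex I, chaperones that leave before the enzyme is complete, had a negative median where its subunits had a positive one. Of 7 tested, 3 were lower (Ndufaf2, Ndufaf5 and Ndufaf6) and 1 higher (Ndufaf3), with a median of -0.22. All genes gave 31.2% lower and 26.7% higher, with a median of -0.05. Without 158R 5 of the 7 were lower and 1 higher, against 33.0% and 26.5% of all genes. Ndufaf2, which acts late in assembly, was at 20.9, 18.4, 15.2 and 14.6 RPKM in P10-wt and at 10.5, 13.1, 10.9 and 9.94 in P28-wt. All P28-wt libraries lay below all P10-wt libraries, 158R being the nearest, and Ndufaf2 fell by 0.62 ± 0.13 (adjusted p = 0.00212 by limma). Ndufaf5, an arginine hydroxylase that modifies Ndufs7, fell by 0.41 ± 0.09 from 8.51 ± 0.248 to 6.40 ± 0.749 RPKM, again without overlap. Ndufaf3, which joins the quinone module early, rose by 0.49 ± 0.12, or 0.25 with GC and length trends removed. The fall of Ndufaf6 had an adjusted p of 0.0499 by limma, its groups overlapped, and it kept its call in 1 of the 8 fits without a library. Atp5sl, whose human counterpart takes part in building the distal membrane arm of complex I, rose from 6.31, 8.17, 8.37 and 8.26 RPKM to 14.4, 16.3, 17.1 and 14.3 (0.99 ± 0.11, adjusted p = 3.48e-05 by limma), with no overlap.

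Of the 9 members of complex III only Uqcrc1 passed the threshold, where 57.9% of all genes did. This core subunit on the matrix side rose by 0.40 ± 0.11 (adjusted p = 0.00933 by limma). Its P10-wt libraries were at 81.7, 95.8, 103 and 108 RPKM and its P28-wt libraries at 126, 128, 145 and 114, without overlap, but with GC and length trends removed it was no longer called (0.15, adjusted p = 0.124 by limma). Cytochrome c1 (Cyc1) and the Rieske protein (Uqcrfs1), its nuclear-encoded electron carriers, differed by 0.23 ± 0.10 and 0.25 ± 0.10 and did not pass (adjusted p = 0.0643 and 0.0609 by limma). With the same trends removed Cyc1 was at 0.02 and Uqcrfs1 passed (0.23, adjusted p = 0.0162 by limma).

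In complex IV 5 of 16 members tested were higher and none lower (Cox4i1, Cox4i2, Cox6a1, Cox6a2 and Cox8a), and without 158R 4 were higher and 1 lower. The share called higher, 31.2%, was near the 26.7% of all genes (26.5% without 158R). Of all genes 31.2% were lower, and 33.0% without 158R. Cox8a, the common isoform of a small structural subunit, was at 170, 263, 240.1 and 268 RPKM in P10-wt and at 403, 598, 441 and 326 in P28-wt. The groups did not overlap, and Cox8a rose by 0.90 ± 0.20 (adjusted p = 0.00292 by limma), or by 0.74 without 158R. Cox4i1, the common isoform of subunit 4, rose by 0.71 ± 0.14 from 290.4 ± 39.1 to 476 ± 76.1 RPKM (adjusted p = 0.00157 by limma), or 0.45 with GC and length trends removed. Its counterpart Cox4i2, known from lung, stayed low. It was called higher at 1.01 ± 0.138 against 1.52 ± 0.375 RPKM, its groups overlapped, only 3 of 8 fits without a library kept the call, and it was lost with GC and length trends removed (adjusted p = 0.351 by limma). Cox6a1 kept its call in 4 of 8 and lost it without 158R (adjusted p = 0.0543 by limma) and with the trends removed (adjusted p = 0.102 by limma). Cox5a and Cox5b did not pass (adjusted p = 0.323 and 0.672 by limma), although Cox5a was lower with the trends removed (-0.26, adjusted p = 0.0197 by limma), nor did Ndufa4, a former complex I subunit now placed in complex IV, or its paralogue Ndufa4l2.

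The heart and muscle isoform Cox6a2 had the largest fitted rise of all members with every library included, though not without 103R, where it was at 0.78 against 0.90 for Atp5sl and 0.80 for Ndufs7. It was at 1.28, 3.36, 3.84 and 3.42 RPKM in P10-wt, at 4.51, 8.11, 8.05 and 4.82 in P28-wt and at 7.87, 8.96, 7.07 and 7.37 in P28-KO. All P28 libraries lay above all P10-wt libraries, and Cox6a2 rose by 1.13 ± 0.33 on the log2(RPKM + 0.1) scale (adjusted p = 0.0135 by limma). Library 103R was far below the other P10-wt libraries here, and with 103R and 158R both left out the rise was 0.65 (adjusted p = 0.0177 by limma). Cox6a2 was still a small part beside the common isoform Cox6a1, which stood at 318 to 410.4 RPKM in P10-wt and 404 to 638 in P28-wt. The other muscle isoforms stayed low, with Cox7a1 at 0.896 ± 0.103 and 1.28 ± 0.541 RPKM and Cox8b at most 0.463 in any library. Summed levels of 7 striated muscle markers, of which 2 passed the filter, were 4.04 to 4.57 RPKM in P10-wt, 10.9 to 12.7 in P28-wt and 8.30 to 11.5 in P28-KO, with Acta1 and Myh7 making up most of them. Pvalb, the marker of parvalbumin interneurons, was at 0.170 to 1.27 RPKM in P10-wt, 25.4 to 47.6 in P28-wt and 24.5 to 30.5 in P28-KO. Of 7 markers listed for these cells, Pvalb among them, 5 were higher in P28-wt and 1, Lhx6, was lower. Their summed level was 65.5 to 72.6 RPKM in P10-wt, 155 to 173 in P28-wt and 161 to 172 in P28-KO. Both sums and Pvalb moved in the same direction as Cox6a2, and their part in its rise was not tested. The testis isoform Cox6b2 was found at 1.46 to 1.90 RPKM in P10-wt and 0.531 to 2.44 in P28-wt, where 158R alone exceeded every P10-wt library. Without 158R it was lower at P28 (-0.81, adjusted p = 0.0232 by limma).

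Of the 15 members of ATP synthase 3 were higher (Atp5d, Atp5h and Atp5j) and 1 lower (Atp5c1), with a median of -0.01. All genes tested gave 26.7% higher and 31.2% lower. Without 158R 2 members were higher and 5 lower (against 26.5% and 33.0% of all genes), with a median of -0.14. The catalytic subunit Atp5b, at 479 ± 29.7 RPKM in P10-wt and 523 ± 44.6 in P28-wt, overlapped between the groups and did not pass (0.12 ± 0.11, adjusted p = 0.332 by limma). Atp5c1, the rotating gamma stalk, was at 79.5, 91.5, 87.6 and 85.0 RPKM in P10-wt and at 65.1, 85.1, 70.9 and 62.4 in P28-wt. Only 158R reached the P10-wt range, and Atp5c1 fell by 0.29 ± 0.10 (adjusted p = 0.0359 by limma) or, without 158R, stood at -0.38, a call kept in 2 of the 8 fits without a library. The rise of Atp5j, a coupling factor of the stalk, was kept in 1 of them. Atp5j stood at 163 RPKM in 158R and at 87.3 to 113 in the other P28-wt libraries, and its difference without 158R is not given here. With GC and length trends removed Atp5d (0.09, adjusted p = 0.368 by limma) and Atp5j (adjusted p = 0.0862 by limma) were not called, and Atp5o and Atp5g1 were lower (adjusted p = 0.000307 and 0.0345 by limma). The 3 genes for the identical mature c subunit of the ring were unequal in level, with Atp5g3 at 209 to 353 RPKM over the 12 libraries, Atp5g1 at 13.1 to 23.0 and Atp5g2 at 0.627 to 1.68, and none passed with values as deposited. The Atp5g1 and Atp5g2 levels and the calls on Atp5h, Atp5o and Atp5g1 are uncertain because of copies elsewhere in the genome.

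Genes around the chain, in lists chosen with earlier results of these data known, were counted in the same comparison, where 26.7% of all genes were higher and 31.2% lower (26.5% and 33.0% without 158R). Of 34 assembly factors outside the symbol rule 11 were higher and 1 lower (median 0.19), and without 158R 10 were higher and 4 lower (0.13). Cox17, the copper chaperone of complex IV, rose by 1.37 ± 0.27 (1.07 without 158R), Atpaf1, which assembles the F1 part of ATP synthase, by 0.95 ± 0.17 and Cox14 by 0.70 ± 0.13, while Coa7 fell by 0.61 ± 0.08. Of 14 genes for mobile carriers and for ATP and phosphate exchange 4 were higher and 2 lower with a median of 0.19, and without 158R 4 and 3 with 0.04, among them Coq9 (0.94 ± 0.08) and Coq2 (0.66 ± 0.11) of ubiquinone synthesis, the mitochondrial creatine kinase Ckmt1 (0.90 ± 0.17) and, among the lower, the prenyl transferase subunit Pdss1 (-0.56 ± 0.12). Of 18 genes for mitochondrial import, outer membrane and matrix proteins, used as marks of mitochondrial mass, 2 were higher and 8 lower (median -0.11), and without 158R 3 and 9. Vdac3, an outer membrane channel, fell by 0.74 ± 0.09, the import receptor Tomm70a by 0.72 ± 0.07, the chaperonin Hspd1 by 0.62 ± 0.06 and citrate synthase (Cs) by 0.37 ± 0.07. None of the 13 subunits encoded in mitochondrial DNA was in the table, and they were not analysed here.

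Of 15 regulators of respiratory genes tested 1 was higher and 7 lower in P28-wt (median -0.28), and without 158R 1 and 6. The shares of all genes were 26.7% and 31.2%, and 26.5% and 33.0% without 158R. Esrra, an orphan nuclear receptor of oxidative genes, was at 11.4, 13.0, 13.99 and 13.6 RPKM in P10-wt and at 23.8, 24.1, 26.6 and 20.5 in P28-wt, without overlap, and rose by 0.87 ± 0.10 (adjusted p = 4.19e-05 by limma). With GC and length trends removed Yy1 was at -0.29 and Gabpa was no longer called (adjusted p = 0.133 by limma). Yy1 fell by 0.49 ± 0.07 with values as deposited, the ETS factor Gabpa by 0.47 ± 0.11 and the coactivator Pprc1 by 0.71 ± 0.12. Ppargc1a, the coactivator known as the main inducer of mitochondrial biogenesis, was at 6.29 to 8.82 RPKM in P10-wt and 5.70 to 6.81 in P28-wt, overlapping, and differed by -0.31 ± 0.11 (adjusted p = 0.0359 by limma), a call lost without 158R (adjusted p = 0.0664 by limma) and with GC and length trends removed (0.04, adjusted p = 0.779 by limma).

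To ask whether loss of miR-132 and miR-212 changed the chain at day 28, P28-KO was compared with P28-wt. No member passed the threshold by limma, where 0.0144% of all genes did (0 higher and 2 lower of 13927), with or without 158R. At an unadjusted p under 0.05 there were 7 members, all of them lower (7.87% of 89, against 8.11% of all genes lower and 4.27% higher), and the regularized test called 10 lower and 0 higher (11.2%, against 6.94% of all genes lower and 4.67% higher). Fitted differences lay below 0 for 85 of 89 members (95.5%, against 56.3% of all genes), with a median of -0.14 against -0.03. Without 158R 44 of 89 were below 0, the median was 0.00, 2 members were lower and 2 higher at an unadjusted p under 0.05, and again none passed. By complex the median went from -0.15 to 0.03 for complex I, from -0.17 to -0.11 for complex II, from -0.14 to -0.02 for complex III, from -0.13 to 0.05 for complex IV and from -0.14 to -0.03 for ATP synthase when 158R was left out. GC content moved with this comparison as well, with a rho of -0.46 over the 89 members and -0.43 over all genes, and with trends on GC content and length removed the members' median was -0.03.

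**Figure D5:**
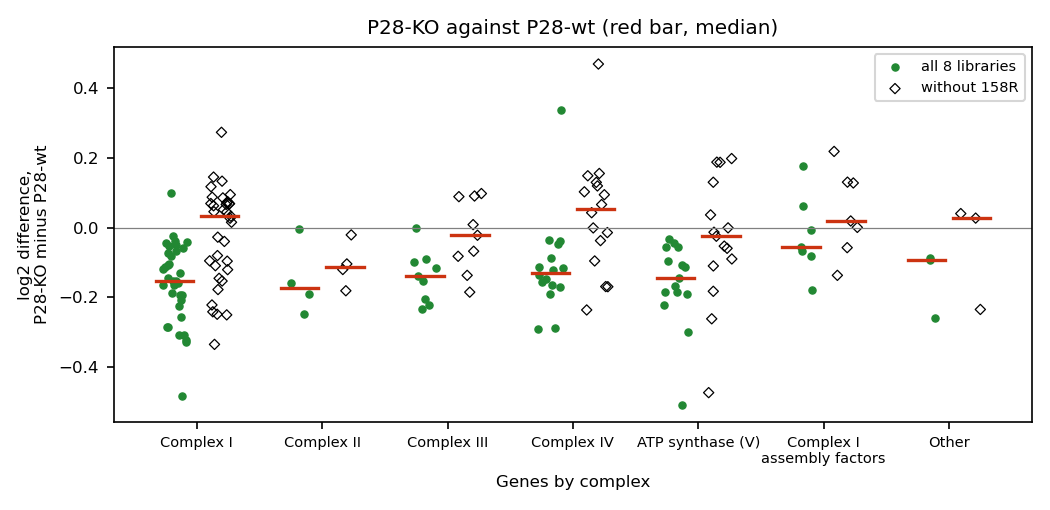
Log2 differences P28-KO minus P28-wt (y axis) of the 89 genes by complex (x axis), filled circles with all 8 libraries and open diamonds without 158R, red bars marking medians. With all libraries the median of complex I is -0.15, and without 158R it is 0.03.

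The 5 members with the smallest p in this comparison were all lower in the mutant, and none passed after adjustment. Ndufs8 was at 48.5, 56.4, 53.6 and 43.0 RPKM in P28-wt and at 44.8, 42.0, 37.7 and 37.9 in P28-KO. The groups overlapped in 1 library of each, and the difference was -0.31 ± 0.10 (adjusted p = 0.382 by limma) or -0.25 without 158R. Atp5sl was at 14.4, 16.3, 17.1 and 14.3 RPKM in P28-wt and at 13.8, 13.5, 12.4 and 12.02 in P28-KO, with a difference of -0.26 ± 0.09 (adjusted p = 0.382 by limma). It was the only one of 89 members (1.12%) whose mutant libraries all lay below all wild-type libraries, where 3.62% of all genes did so, and no member had all its mutant libraries above (1.87% of all genes). Ndufb10 differed by -0.31 ± 0.12 and Sdhc by -0.25 ± 0.11, with adjusted p of 0.394 and 0.400 by limma. Sdha, at 119, 111, 122 and 109 RPKM in P28-wt and 113, 116, 111 and 120.3 in P28-KO, overlapped, with a 95% interval of the log2 difference of -0.16 to 0.15. The 95% interval lay inside -0.5 to 0.5 for 50 of the 89 members and inside -1 to 1 for 88. A member that was not called may still differ within its interval. The smallest difference detectable with 4 libraries a group was not tested.

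Mature miRNAs of the deleted locus are shown because sites for their seeds (bases 2 to 8, in capitals, from RefSeq) were counted. miR-132-3p and miR-212-3p share a seed, which pairs with GACTGTT, and that of miR-212-5p pairs with GCCAAGG.
miR-132-3p: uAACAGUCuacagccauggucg
miR-212-3p: uAACAGUCuccagucacggcca
miR-212-5p: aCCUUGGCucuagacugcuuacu
GACTGTT was found in the 3' UTR of 2 of the 89 members tested (2.25%), against 12.21% of 13115 genes tested that have an annotated 3' UTR, and the members' 3' UTRs are short, with a median of 163 nt against 1090 nt. The GACTGTT sites, with the heptamer in capitals, were on chromosome 7 in Ndufab1, the acyl carrier protein of complex I, and on chromosome 10 in Ndufa12, an accessory subunit.
Ndufab1: aaaggcagcatGACTGTTggaaatcaaag
Ndufa12: accgcagtgaaGACTGTTcctgcacttcc
Ndufab1 ranged from 3.92 to 6.25 RPKM in P28-wt, and all 4 P28-KO libraries lay within that range. Ndufa12 was at 31.2, 45.4, 32.7 and 27.1 RPKM in P28-wt and at 30.3, 30.8, 27.4 and 29.2 in P28-KO. Both overlapped between the genotypes, and neither passed the threshold. GCCAAGG was also in 2 of 89 members (2.25%, against 12.08% of genes), Uqcrq of complex III and Ndufa11 of complex I, neither of them called in P28-KO against P28-wt, and the site for miR-132-5p (CCACGGT) was in 0 of 89 (against 3.16%).

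P28-KO against P10-wt shares its P10-wt libraries with the age comparison, so the values are set side by side only. Of 89 members 15 were higher (16.9%) and 10 lower (11.2%) by limma, against 24.6% and 33.6% of all genes (58.2% in either direction), with a median of 0.01. The groups did not overlap for 15 higher and 10 lower members (against 23.1% and 31.6%). Without 103R, 12 were higher and 20 lower (against 24.0% and 33.0%). Median-ratio scaling gave 21 higher and 9 lower (against 28.5% and 28.4%), and the regularized test 26 and 27 (against 31.0% and 41.3%). Sdha rose by 0.68 ± 0.08 and Sdhd fell by 0.53 ± 0.08, next to 0.68 and -0.37 in the wild type. Cox8a rose by 0.72 ± 0.14, Cox4i1 by 0.52 ± 0.12, Ndufs7 by 0.57 ± 0.15, Ndufv1 by 0.39 ± 0.09 and Atp5sl by 0.73 ± 0.10, against 0.90, 0.71, 0.90, 0.58 and 0.99 in the wild type. Cox6a2 rose by 1.47 ± 0.28. The mutant and wild-type values were tested against each other only in the comparison of P28-KO with P28-wt.

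The falls in P28-KO took in subunits as well as assembly factors, as those in P28-wt did with Sdhd and Atp5c1. Ndufaf2 fell by 0.70 ± 0.15 and Ndufaf5 by 0.47 ± 0.07. Ndufs4, an accessory subunit needed for a stable complex I, was at 28.6, 34.0, 27.4 and 29.5 RPKM in P10-wt and at 23.2, 23.4, 22.3 and 23.1 in P28-KO. No mutant library reached the P10-wt range, and Ndufs4 fell by 0.37 ± 0.07 (adjusted p = 0.00161 by limma), next to -0.29 ± 0.15 in the wild type, where it did not pass with 158R included (adjusted p = 0.114 by limma) and passed without it (-0.45, adjusted p = 0.0027 by limma). Ndufb6, another accessory subunit, fell by 0.44 ± 0.09, Cox5a of complex IV by 0.34 ± 0.09, Atp5c1 by 0.34 ± 0.06, Cox6b2 by 0.77 ± 0.21 and Atp5o, which links the F1 head to the stalk and whose level is uncertain because of a copy elsewhere, by 0.36 ± 0.08. Differences of these genes in the wild type were -0.16 for Ndufb6, -0.18 for Cox5a, -0.29 for Atp5c1, -0.48 for Cox6b2 and -0.19 for Atp5o, of which Atp5c1 alone passed. Without 158R they were -0.33 for Ndufb6, -0.30 for Cox5a, -0.38 for Atp5c1, -0.81 for Cox6b2 and -0.27 for Atp5o, and all but Cox5a passed. In complex I 7 were higher and 2 lower, in complex IV 3 and 2, in ATP synthase 2 and 3, and in complex II 1 and 1. For complex III none passed at an adjusted p under 0.05 by limma, with 1 of 9 at an unadjusted p under 0.05. All genes tested gave 24.6% higher and 33.6% lower in P28-KO against P10-wt.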

How the data were processed

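Messenger RNA libraries were TruSeq paired-end libraries. The authors aligned reads to mm10 with ELAND, kept reads with a unique place and at most the mismatches their methods allow, and deposited 1 RPKM column per library, with no counts. The submitters' processing notes also name CASAVA 1.8.2, SAMtools 0.1.19 and Bowtie 0.12.8. No whole reads were recovered from the RPKM steps: of 120617 values above 0 in 15322 genes with 1 curated transcript, 3012 (2.5%) were worth less than 1 read at 50 M reads. The reads behind each library were therefore not computed here. The 12 small RNA libraries were not analysed here.

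The 3 comparisons were fitted separately in limma 3.58.1 under R 4.3.3, using log2(RPKM + 0.1) and a mean-variance trend. They covered 13927 genes with a mean of at least 0.5 RPKM over the 12 libraries. P-values were adjusted over all of them. Fold changes on this scale understate the change of low genes. The fits were tested on simulated data. Transcript length, GC content, 3' UTRs and copies (BLAST 2.17.0, stretches of at least 100 nt at 97% identity, a limit raised after a first look) came from RefSeq on GRCm38.p6. For this 1141 genes matched by an older symbol and 165 did not match. All 93 members had a transcript. Members and lists were chosen with earlier results of these data known.

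Named genes were, for each comparison, up to 6 higher and 6 lower members with the largest change among those that passed at a mean of at least 1 RPKM, or the 5 with the smallest p where fewer than 3 passed, plus tissue isoforms, core and catalytic subunits, Ppargc1a and up to 4 genes a list with the smallest p. The values of 1 member are not reported by name, and it is left out of the plot with gene names and of the check for libraries that stand apart. Further genes named beside them were chosen after their values were seen. Each comparison was repeated with a pseudocount of 0.01 or 1, without the filter or with a minimum mean of 2 RPKM, and with median-ratio scaling, quantile normalization, 1 fit of all 12 libraries, a rebuilt regularized test on RPKM (window of 101 genes, confidence of 10, posterior probability above 0.6), removal of GC and length trends (loess, span 0.3), a replicate block and leaving out each library.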

Additional observations from a re-analysis of the deposited data

Results flagged for a closer look

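Among 45 named members in 3 groups of 4 libraries, 14 groups held a library that stood away from the other 3 by more than a gap test allows. Chance flags about 1 group in 20, but genes of the same 12 libraries are not independent draws. The share of flagged groups over all genes is not given here. No excess is therefore read from the 14 flagged groups. In 9 of them P10-wt library 103R was the lowest: Atp5a1 (257 RPKM against 300.2 to 307 in the other libraries), Atp5b (435 against 491 or more), Atp5sl (6.31 against 8.17 to 8.37), Cox7a1 (0.743 against 0.928 to 0.964), Ndufs8 (27.9 against 36.6 to 38.0), Ndufv1 (53.9 against 61.6 to 62.7), Sdha (61.8 against 74.7 to 76.5), Sdhb (75.5 against 86.5 to 87.9) and Sdhd (54.9 against 64.7 to 65.5). In the same library Cox8b was listed at 0.0278 RPKM and at 0 in the other 3.

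In P28-KO, library 030R was highest for Cox6c (198.6 RPKM against 161 to 166) and Cox7a2 (92.6 against 74.7 to 76.2), and library 088R for Ndufb10 (130.5 against 105 to 109). In P28-wt, library 158R was highest for Cox7b2 (0.452 RPKM against 0.178 to 0.209).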

How the results depend on the processing

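In P28-wt against P10-wt, where 22 members were higher and 5 lower, leaving out 1 library gave 15 to 29 higher and 3 to 16 lower. The most falls came without 158R, where 33.0% of all genes were lower, against 31.2% with all libraries. Leaving out 103R and 158R together, chosen after seeing the data, gave 16 higher and 21 lower (against 27.5% and 33.4% of all genes). The regularized test gave 34 higher and 8 lower, quantile normalization 8 lower, removal of GC and length trends 11 lower, and no filter and median-ratio scaling 3 lower each. Atp5a1, not called with all libraries, was lower under quantile normalization (-0.25), and Ndufa4 was lower without 103R and 158R (-0.28); for both the cause was not tested. In P28-KO against P28-wt, where none passed, the regularized test gave 10 lower (11.2%, against 6.94% of all genes). In P28-KO against P10-wt, with 15 higher and 10 lower, the regularized test gave 26 and 27 (against 31.0% and 41.3% of all genes). Leaving out 1 library gave 10 to 15 higher and 10 to 20 lower. The highest count of falls came without 103R, where 33.0% of all genes were lower.

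Replicate numbers in the column names did not pair the libraries (correlations of same-numbered deviations from -0.156 to 0.281). A replicate block gave 22 higher and 5 lower, none, and 12 higher and 9 lower in the 3 comparisons. The shares of all genes under the block are not given here. Precision is limited by 4 libraries a group, by values without counts and by uniquely placed reads for members with near-identical copies.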
